A study of Mus musculus with 7 samples.

Results

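AMPA and kainate receptors are channels opened by the transmitter glutamate, and 9 genes encode their pore-forming subunits: Gria1 to Gria4 for AMPA receptors and Grik1 to Grik5 for kainate receptors. These 9 genes were taken by symbol from 19938 genes measured on 7 microarrays, and each was represented by 1 probe set. The arrays held RNA of cells sorted by fluorescence from the whole bowel of mouse embryos at embryonic day 17.5. All embryos were Wnt1-Cre;R26R-EYFP, so that the recombinase Cre, driven by the Wnt1 promoter in the neural crest, switched on a yellow fluorescent protein (EYFP) for good in crest cells and their descendants. The 4 YFP+ samples are labelled as enteric neural crest-derived cells, the source of the neurons and glia of the bowel wall, and the 3 YFP- samples as all other bowel cells. Separate embryos, litters or sorts are not named in the labels, and the p-values reflect no more than the spread among these samples, which may be technical.

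An AMPA or kainate receptor is a tetramer, opened by glutamate released from a nearby nerve ending. AMPA receptors carry most fast excitatory transmission in the brain, while kainate receptors tune excitability and transmitter release. Gria2 has a special place among the AMPA subunits, because its edited transcript encodes a subunit that makes the channel nearly impermeable to calcium. Grik1, Grik2 and Grik3 encode kainate subunits that can form channels on their own, and Grik4 and Grik5 encode high-affinity subunits that need one of those as a partner. In the bowel, glutamate receptors have been described on enteric neurons, where acetylcholine is the main fast transmitter.

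Of the 9 subunit genes, 6 were higher in YFP+ cells and 0 were lower (limma, a linear model with moderated variances; Benjamini-Hochberg adjusted p under 0.05 over all genes; at an unadjusted p under 0.05 the counts were also 6 and 0). Over all genes 8.39% were called higher and 9.11% lower. The arrays of both groups were fully apart for the same 6 subunit genes, against 26.9% of all genes. Grik2, Gria2, Gria4 and Grik3 differed most, by between 16-fold and 6.74-fold, Grik1 and Grik5 differed by 2.07-fold and 1.69-fold, and Gria1, Gria3 and Grik4 did not pass. The median log2 difference, YFP+ minus YFP-, was 1.05 over the 9 genes and 0.01 over all genes. In sorted populations a rise in the number of cells that make an RNA and a rise in RNA per cell cannot be told apart.

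The bases before the start sites of the 4 genes with the largest differences are shown because one of them holds a match to the RE1 element, the binding site of the repressor REST, which silences neuronal genes outside neurons. The sequences are from RefSeq, build GRCm38.p6, and run 5′ to 3′ along the gene through the 250 bases before its annotated start. Capitals mark a match to the core of the RE1 element, which is AGCACC followed after 2 bases of any kind by GGACAG, or to the GC box (GGGCGG), on either strand.
Gria2, chr3:80802836-80803085, minus strand: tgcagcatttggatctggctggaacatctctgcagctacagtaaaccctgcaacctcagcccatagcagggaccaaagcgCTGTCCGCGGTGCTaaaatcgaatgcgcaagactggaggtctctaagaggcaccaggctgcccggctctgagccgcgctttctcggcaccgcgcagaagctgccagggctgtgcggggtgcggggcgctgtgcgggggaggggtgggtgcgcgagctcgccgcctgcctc
Gria4, chr9:4796235-4796484, minus strand: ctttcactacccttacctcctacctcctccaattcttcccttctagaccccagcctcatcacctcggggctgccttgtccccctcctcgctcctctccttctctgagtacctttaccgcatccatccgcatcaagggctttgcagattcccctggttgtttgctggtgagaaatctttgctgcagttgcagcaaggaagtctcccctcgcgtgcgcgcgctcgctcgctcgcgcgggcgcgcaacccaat
Grik2, chr10:49788755-49789004, minus strand: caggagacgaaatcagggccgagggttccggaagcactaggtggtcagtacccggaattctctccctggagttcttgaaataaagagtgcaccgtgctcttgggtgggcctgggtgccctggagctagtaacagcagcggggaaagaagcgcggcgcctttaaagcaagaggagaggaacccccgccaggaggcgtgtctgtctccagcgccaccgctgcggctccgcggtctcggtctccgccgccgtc
Grik3, chr4:125490446-125490695, plus strand: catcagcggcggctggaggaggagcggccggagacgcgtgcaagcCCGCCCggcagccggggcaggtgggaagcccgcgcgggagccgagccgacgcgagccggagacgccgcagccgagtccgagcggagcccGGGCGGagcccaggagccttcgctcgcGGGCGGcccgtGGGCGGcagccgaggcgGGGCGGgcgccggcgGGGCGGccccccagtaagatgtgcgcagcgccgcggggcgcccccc

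RefSeq windows were found for 6 of the 9 subunit genes, Gria2, Gria4, Grik2, Grik3, Grik4 and Grik5. The Gria2 window holds the RE1 core on the strand opposite to the gene, from 170 to 157 bases before the start, as CTGTCCGCGGTGCT on the gene's own strand. The other 5 windows hold no match to these letters. Among all 32851 windows of this length 15 hold the core, which is 0.0457%. The GC box, a short site bound by factors of the Sp family, occurs 6 times in the Grik3 window, 2 times in that of Grik5 and 1 time in that of Grik4, and 32.7% of all windows hold at least 1. The E-box CAGCTG and the TATA motif TATAAA, also searched on both strands, occur in none of the 6 windows, against 13.0% and 12.4% of all windows. G and C made up 82.0% of the Grik3 window, 75.2% of that of Grik5 and 69.6% of that of Grik4. They made up 58.8% to 64.8% of the windows of Gria2, Gria4 and Grik2, against a median of 52.4% over all windows. The part of base composition in these motif counts was not tested. The GC boxes in the Grik3 window do not overlap each other, and none of these motifs overlaps the RE1 core. A match is a description of the letters, and these arrays do not measure binding.

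The labels of the sorted groups were checked against cell type markers. The mean log2 level of 7 neuronal markers was 8.81 to 9.36 on YFP+ arrays and 5.02 to 5.40 on YFP- arrays, and that of 5 markers of glia and progenitors was 8.57 to 8.92 against 5.54 to 5.86. Myeloid markers went the other way, at 5.81 to 6.97 against 10.04 to 10.32. Within the YFP+ group, arrays 3 and 4 had higher means than arrays 1 and 2 for epithelial markers (8.22 and 8.48 against 7.18 and 7.62) and for smooth muscle markers (9.66 and 10.11 against 8.20 and 9.04). The same held for fibroblast (8.48 and 8.74 against 7.58 and 7.95), myeloid (6.82 and 6.97 against 5.81 and 6.20), Cajal cell, endothelial and mesothelial markers, and the reverse for the neuronal and glial means. Epithelial markers overlapped between the groups, with 8.0 to 8.08 on YFP- arrays. Values are RMA levels, background-corrected and quantile-scaled summaries of each probe set on the log2 scale, with no detection call, so a low level can be largely background and its difference understated. Levels of different genes come from different probes and are not set against each other.

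**Figure D1:**
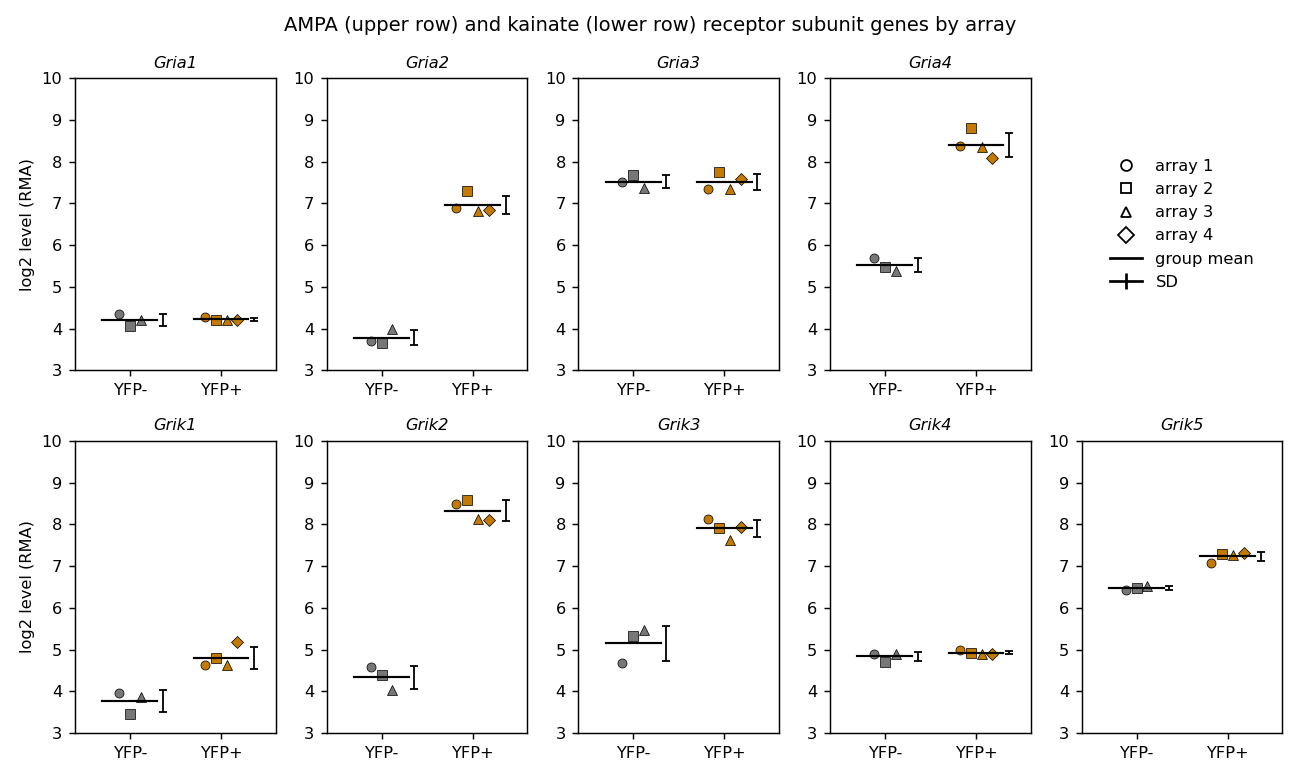
Log2 RMA level (y axis) of each AMPA subunit gene (upper row) and kainate subunit gene (lower row) in YFP- and YFP+ cells; each symbol is 1 array, lines are group means and bars SD. The groups are apart for Gria2, Gria4, Grik1, Grik2, Grik3 and Grik5, and overlap for Gria1, Gria3 and Grik4.

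Among the AMPA genes, Gria2 and Gria4 were higher in YFP+ cells. Gria2 had log2 levels of 6.89, 7.29, 6.81 and 6.85 on YFP+ arrays 1 to 4 and of 3.70, 3.65 and 3.98 on YFP- arrays 1 to 3. Array 2 was the highest of its group, and the lowest YFP+ array lay far above every YFP- array. The means were 6.96 ± 0.22 (SD, n = 4) and 3.78 ± 0.18 (SD, n = 3), a log2 difference of 3.18 ± 0.14 (SE; limma adjusted p = 3.59e-05) or 9.07-fold.

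Gria4, whose product forms fast-gating AMPA channels, had log2 levels of 8.38, 8.80, 8.35 and 8.10 on the YFP+ arrays and of 5.70, 5.49 and 5.37 on the YFP- arrays. The groups did not overlap, and YFP+ array 2 was again the highest. This gave a log2 difference of 2.89 ± 0.17 (SE; limma adjusted p = 8.24e-05), or 7.41-fold, between means of 8.41 ± 0.29 (SD, n = 4) and 5.52 ± 0.17 (SD, n = 3). In the fit without YFP+ arrays 3 and 4, the log2 differences were 3.31 for Gria2, 3.07 for Gria4, 4.21 for Grik2 and 2.87 for Grik3, each larger than with all arrays, and 0.95 for Grik1 and 0.71 for Grik5, both smaller.

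Gria3 had overlapping levels on both sides of the sort. Its log2 levels were 7.35, 7.75, 7.35 and 7.59 on the YFP+ arrays and 7.51, 7.68 and 7.37 on the YFP- arrays, so the ranges overlapped throughout. The log2 difference was -0.01 ± 0.12 (SE; limma adjusted p = 0.969), with a 95% interval from -0.31 to 0.28. Its sign turned when arrays were centred on their medians, at 0.02.

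Gria1 had log2 levels of 4.28, 4.21, 4.21 and 4.21 on the YFP+ arrays and of 4.35, 4.06 and 4.21 on the YFP- arrays. The value was the same to 6 decimals on 4 of the 7 arrays, YFP+ arrays 2, 3 and 4 and YFP- array 3. The log2 difference was 0.02 ± 0.08 (SE; limma adjusted p = 0.902), with a 95% interval from -0.16 to 0.20, and its sign turned without YFP- array 2 (-0.05). With no detection call these data do not show whether Gria1 was expressed in either group.

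The 3 kainate genes whose products form channels on their own were all higher in YFP+ cells. Grik2 differed most of the 9 subunit genes and ranked 18th of all genes by its log2 difference. Its log2 levels were 8.50, 8.58, 8.13 and 8.10 on YFP+ arrays 1 to 4 and 4.58, 4.39 and 4.02 on the YFP- arrays. YFP+ arrays 1 and 2 were above arrays 3 and 4, as were the neuronal marker mean (9.35 and 9.36 against 9.09 and 8.81) and the glial and progenitor mean (8.92 and 8.86 against 8.57 and 8.57), while the non-neural means ran the other way. All YFP+ arrays were far above the YFP- arrays, and the part of these cell types in the order of the YFP+ arrays was not tested. The log2 difference was 4.0 ± 0.18 (SE; limma adjusted p = 3.41e-05), or 16-fold, between means of 8.33 ± 0.25 (SD, n = 4) and 4.33 ± 0.28 (SD, n = 3).

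Grik3 had log2 levels of 8.14, 7.91, 7.64 and 7.93 on the YFP+ arrays and of 4.68, 5.32 and 5.46 on the YFP- arrays. YFP- array 1 was the lowest of its group, and the groups lay well apart. Its log2 difference was 2.75 ± 0.20 (SE; limma adjusted p = 1.94e-04), or 6.74-fold.

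Grik1 had log2 levels of 4.62, 4.80, 4.62 and 5.18 on the YFP+ arrays and of 3.97, 3.45 and 3.86 on the YFP- arrays. YFP+ array 4 had the highest Grik1 level of its group. It also had the lowest neuronal marker mean and the highest epithelial, smooth muscle, fibroblast, endothelial, myeloid and Cajal cell means, whose part in this level was not tested. The log2 difference was 1.05 ± 0.18 (SE; limma adjusted p = 0.00710), or 2.07-fold, and the gene was called under each alternative that kept it, with an adjusted p of at most 0.0457. It was left out, with Gria1 and Grik4, by the filter on genes of low mean level.

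Of the high-affinity subunit genes, Grik5 was higher in YFP+ cells and Grik4 did not pass. Grik5 had log2 levels of 7.08, 7.30, 7.26 and 7.31 on the YFP+ arrays and of 6.43, 6.48 and 6.53 on the YFP- arrays. The step between the groups was small and the arrays of each group lay close together, which gave a log2 difference of 0.76 ± 0.07 (SE; limma adjusted p = 5.95e-04), or 1.69-fold. Grik4 had log2 levels of 4.99, 4.91, 4.90 and 4.90 on the YFP+ arrays and of 4.90, 4.70 and 4.90 on the YFP- arrays. These ranges overlapped, and the log2 difference was 0.09 ± 0.07 (SE; limma adjusted p = 0.433), with a 95% interval from -0.07 to 0.26.

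**Figure D2:**
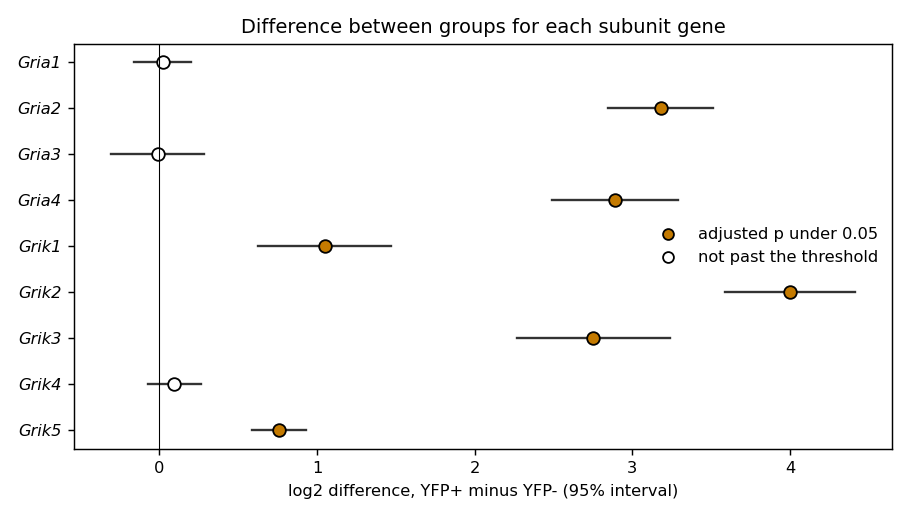
Log2 difference between YFP+ and YFP- cells (x axis; YFP+ minus YFP-) for each subunit gene, with the 95% interval of the moderated fit; filled points passed the threshold. Grik2 stands at 4.0, Gria2, Gria4 and Grik3 between 2.75 and 3.18, Grik1 and Grik5 at 1.05 and 0.76, and Gria1, Gria3 and Grik4 close to 0, with intervals that include it.

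Whether subunits of a subfamily differed by unequal amounts was tested on the difference of 2 genes within each array, so that what the genes share on an array drops out. All 6 AMPA pairs and all 10 kainate pairs were compared with a two-sided exact permutation test over the 35 assignments of the arrays to groups of 4 and 3, in which the smallest possible p is 0.0286. In 13 of the 16 pairs the p was 0.0286 (0.0352 adjusted over the 16 pairs). Of these, 6 involve Gria1 or Grik4, which have the same value on 4 of 7 arrays and no detection call, so that such a pair mostly restates the difference of the other gene. The other 7 are among the 9 pairs without these genes. Gria2 exceeded Gria3 in its log2 difference by 3.19 and Gria4 exceeded Gria3 by 2.90. Gria3 itself had a log2 difference of -0.01, so both pairs mostly restate the differences of Gria2 and Gria4. Gria2 and Gria4 differed from each other by 0.29 (exact p = 0.200, adjusted 0.229), and Gria1 and Gria3 by 0.03 (exact p = 0.800). The split of the AMPA genes into a pair higher in YFP+ cells and a pair that did not pass thus repeats the limma calls.

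Among the kainate genes, the log2 difference of Grik2 exceeded that of Grik3 by 1.25 and that of Grik5 by 3.24, and Grik3 exceeded Grik1 by 1.71 (exact p = 0.0286 for each). Grik1 and Grik5 differed by 0.29 (exact p = 0.229, adjusted 0.244), with overlapping arrays. A p above the threshold does not show that a pair differed by equal amounts, and probe sets can compress a difference to unlike degrees.

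Each called subunit gene was set beside the 3 genes whose centred profile over the 7 arrays lay closest to its own. Closest to Grik2 were Nell2, Tmeff2 and Stmn2, the last a microtubule regulator of growing axons, at Euclidean distances of 0.37, 0.40 and 0.42 on the log2 scale. Closest to Gria2 were Hoxb5 (0.36), the adhesion gene Cadm1 (0.38) and Crmp1 (0.38). Gria4 had the transcription factor gene of autonomic neurons Phox2a (0.44), Fgf13 (0.45) and Bex2 (0.46), and Grik3 had Ttyh1 (0.39), Pirt (0.42) and the migrating-neuron gene Dcx (0.46). Grik5 lay near Kidins220 (0.16), Mtss2 (0.16) and Ap3m2 (0.17). Grik1 lay near Il17rd (0.35), Dpyd (0.43) and Kdr (0.49). Kdr encodes a receptor best known from endothelium, and it was the 1 higher gene among 6 endothelial markers, whose median log2 difference was -0.31. These distances rest on 7 arrays and mainly follow the size of the group difference.

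Counts for the other glutamate receptor classes are set beside those of all genes, of which 8.39% were higher and 9.11% lower. At an unadjusted limma p under 0.05 it was 30.2% of all genes in either direction. Of 7 measured NMDA and delta receptor subunit genes, 0 were higher and 0 lower in YFP+ cells (limma; 0 also at an unadjusted p under 0.05), with log2 differences from 0.02 to 0.27 and a median of 0.17. Their log2 levels lay below every array median (5.87 to 5.92), with Grin2a lowest at 2.95 to 3.32 and Grin3b highest at 5.16 to 5.64. With no detection call these data do not show whether these subunit genes were expressed in either group. Some genes of this and the following lists are not analysed here. Of 7 metabotropic receptor genes, which act through G proteins, 1 was higher and 0 were lower (limma; 1 and 1 at an unadjusted p under 0.05), with a median of -0.08. The higher gene was Grm7, a receptor of nerve endings, at 6.24, 5.74, 5.89 and 5.76 on the YFP+ arrays and 5.24 to 5.26 on the YFP- arrays. Its log2 difference was 0.66 ± 0.13 (SE; limma adjusted p = 0.0112), and its call was lost without YFP+ arrays 3 and 4 (adjusted p = 0.0538). Grm8, chosen after its values were seen, differed the other way by -0.75 ± 0.25 (SE), with groups that did not overlap. It did not pass (limma adjusted p = 0.0840). Whether these lists differ from the AMPA and kainate genes was not tested.

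**Figure D3:**
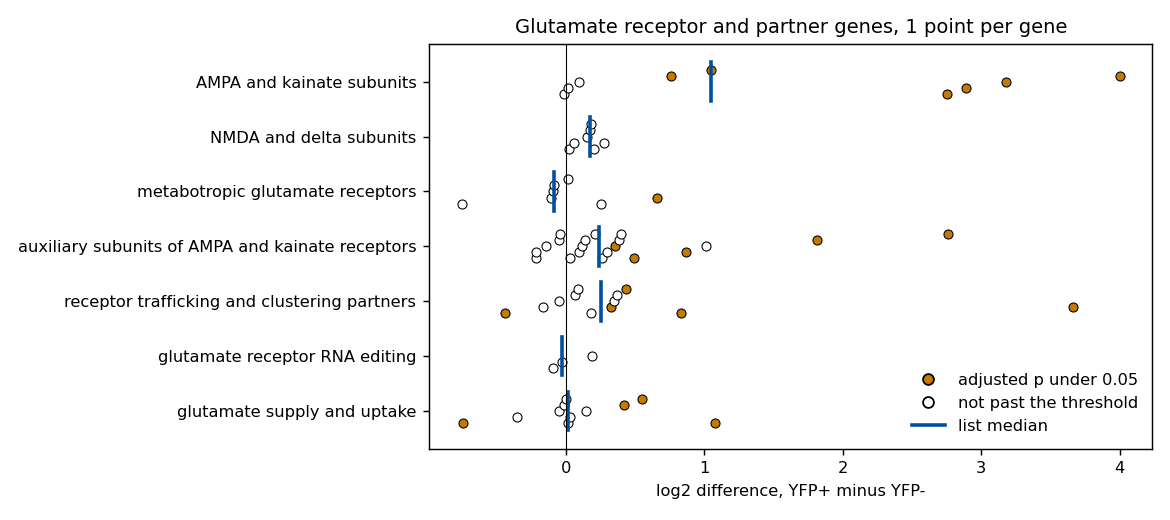
Log2 difference between YFP+ and YFP- cells (x axis; YFP+ minus YFP-) for every measured gene of 7 lists, 1 point per gene; filled points passed the threshold and vertical lines are list medians. The AMPA and kainate list has its median at 1.05, and the other 6 medians lie between -0.08 and 0.25.

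Auxiliary subunits set how AMPA and kainate receptors gate and reach the surface. Of 20 such genes, 5 were higher in YFP+ cells and 0 were lower, against 8.39% and 9.11% of all genes. At an unadjusted limma p under 0.05 the counts were 8 and 0, against 2962 and 3054 of all 19938 genes. The median log2 difference of the list was 0.24. Cacng4, one of the transmembrane AMPA receptor regulatory proteins, had log2 levels of 9.54, 8.96, 8.95 and 9.11 on the YFP+ arrays and of 6.20, 6.27 and 6.67 on the YFP- arrays. The groups lay well apart, with a log2 difference of 2.76 ± 0.18 (SE; limma adjusted p = 1.19e-04). Neto2, an auxiliary subunit of kainate receptors, had log2 levels of 6.93, 6.63, 6.28 and 6.30 on the YFP+ arrays and of 4.70, 4.79 and 4.66 on the YFP- arrays. The YFP- arrays were nearly level, and the log2 difference was 1.82 ± 0.16 (SE; limma adjusted p = 4.33e-04). Its relative Neto1 did not pass, at 0.03 ± 0.07 (chosen after its values were seen).

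Shisa7 (0.87 ± 0.16) and Porcn (0.49 ± 0.12) were also higher (log2 difference ± SE). Porcn encodes an enzyme of Wnt secretion that is also found in AMPA receptor complexes. The call of Shisa7 was lost without YFP+ arrays 3 and 4 (adjusted p = 0.0958). That of Porcn was lost without any 1 array other than YFP- array 1 (adjusted p of up to 0.0889), and without YFP+ arrays 3 and 4 together (limma adjusted p = 0.0681). The count of 5 higher auxiliary genes was 3 without YFP+ array 3, without YFP- array 2, without YFP- array 3 or without YFP+ arrays 3 and 4 together.

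Of 12 genes whose products traffic or cluster the receptors, 4 were higher and 1 was lower in YFP+ cells, with a median of 0.25. The shares over all genes were 8.39% and 9.11%. The counts at an unadjusted limma p under 0.05 were 6 and 1, against 2962 and 3054 of all 19938 genes. Dlg2, a postsynaptic scaffold gene, had log2 levels of 9.01, 8.77, 8.70 and 8.79 on the YFP+ arrays and of 5.24, 5.23 and 4.98 on the YFP- arrays. Its log2 difference of 3.67 ± 0.10 (SE; limma adjusted p = 1.48e-05) was the largest of the 60 genes on the 6 lists beside the subunits. Pick1, which binds AMPA subunits and steers their uptake from the surface, was higher by 0.83 ± 0.11. The scaffold gene Dlg4 was higher by 0.44 ± 0.11, a call that was lost without any 1 array other than YFP+ array 3 (adjusted p of up to 0.137).

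Dlg1, a relative of Dlg2 and Dlg4 that is also active in epithelia, went the other way. It had log2 levels of 7.61 to 7.70 on the YFP+ arrays and of 8.09 to 8.12 on the YFP- arrays, a log2 difference of -0.44 ± 0.05 (SE; limma adjusted p = 0.00130). The groups were narrow and did not overlap. The 4 higher genes of the list were 2 without YFP- array 1.

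**Figure D4:**
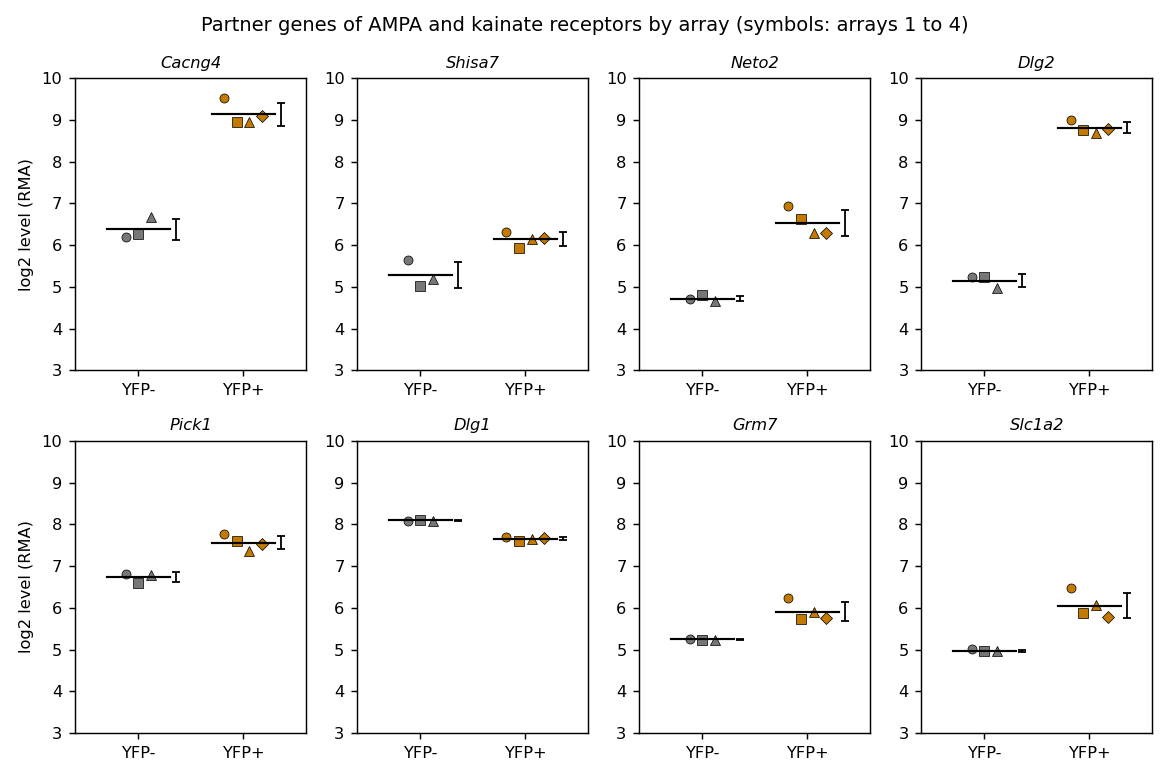
Log2 RMA level (y axis) in YFP- and YFP+ cells of 8 genes that work beside the receptors; each symbol is 1 array, lines are group means and bars SD. Dlg2, Cacng4 and Neto2 show the widest gaps, and Dlg1 is the 1 gene shown that is lower in YFP+ cells.

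The last lists hold genes of the enzyme family that edits receptor transcripts and genes that supply or clear glutamate. Of the 3 genes of the editing enzyme family, Adar, Adarb1 and Adarb2, 0 were higher and 0 lower (limma; 0 also at an unadjusted p under 0.05), with log2 differences from -0.09 to 0.19. Of 11 genes of glutamate supply and uptake, 3 were higher and 1 was lower, against 8.39% and 9.11% of all genes, with a median of 0.02. The counts at an unadjusted limma p under 0.05 were 3 and 2, against 2962 and 3054 of all 19938 genes. The vesicular glutamate transporter genes Slc17a6, Slc17a7 and Slc17a8, which mark neurons that release glutamate, did not pass (chosen after their values were seen). Their log2 differences were 0.14 ± 0.11, 0.02 ± 0.05 and 0.00 ± 0.08 (SE). Their log2 levels were low, at 3.13 to 3.54, 4.36 to 4.43 and 4.16 to 4.40 over the arrays of both groups. With no detection call these data do not show whether the transporter genes were expressed in either group.

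The transporter gene Slc1a2, which clears glutamate around synapses, had log2 levels of 6.47, 5.88, 6.06 and 5.79 on the YFP+ arrays and of 4.95 to 5.0 on the YFP- arrays. It was higher by 1.08 ± 0.16 (SE; limma adjusted p = 0.00375). Slc1a3, another gene of the list chosen after its values were seen, differed the other way by -0.35 ± 0.14 (SE). It did not pass (limma adjusted p = 0.142). Glul, the glutamine synthetase gene, was lower in YFP+ cells, at a log2 difference of -0.74 ± 0.09 (SE; limma adjusted p = 0.00159), with levels of 8.38 to 8.69 on the YFP+ arrays against 9.18 to 9.33. The glutamine transporter genes Slc38a1 (0.55 ± 0.14) and Slc38a3 (0.42 ± 0.10) were higher. The call of Slc38a1 was lost without YFP+ array 1, 3 or 4 or YFP- array 1 or 2 (limma adjusted p of up to 0.117). It was also lost without YFP+ arrays 3 and 4 together (limma adjusted p = 0.165). That of Slc38a3 was lost without YFP+ array 1, 2 or 3 or YFP- array 1 or 2 (up to 0.0826). The count of 3 higher genes was therefore 1 without YFP+ array 1 or 3 or YFP- array 1 or 2.

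Rest, the gene of the repressor that binds the RE1 element found in the Gria2 window, was read for that reason and lies outside the lists. It was lower in YFP+ cells, at 6.66, 6.57, 6.86 and 7.14 on arrays 1 to 4 against 7.45, 7.41 and 7.75. The mean log2 level was 6.81 ± 0.25 (SD, n = 4) against 7.54 ± 0.18 (SD, n = 3). Its log2 difference was -0.73 ± 0.15 (SE; limma adjusted p = 0.0173). No relation between the genes was tested.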

How the data were processed

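RNA was measured in 4 YFP+ and 3 YFP- sorted samples. The authors deposited log2 values per probe set. Per the submitters' processing notes these came from RMA in Affymetrix Expression Console, that is, background correction, quantile scaling of the arrays and a summary over probes, which can compress differences. Program versions, and a single run for all arrays, are not stated there. Per the labels' protocols, cDNA was amplified from very small RNA amounts.

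The platform annotation paired 21789 of 35556 probe sets with 1 gene symbol, 1621 with several, and did not list 12146. The probe set with the highest mean was kept per gene, giving 19938 genes; each member had 1, and none shared a probe set with several genes. Entrez identifiers of 21698 probe sets matched RefSeq and 0 symbols differed. All 7 columns were matched by name (0 left over). Array medians were 5.87 to 5.92. The number of arrays limits the precision.

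Groups were compared with limma 3.58.1 (R 4.3.3; lmFit and eBayes, group as the only term), Benjamini-Hochberg adjusted over all genes at 0.05. The fit was tested on simulated data. Figures used Python 3.11.15 with matplotlib 3.10.9. The members, lists and tests were chosen with earlier results of these data known. Named genes are the 9 members, up to 4 genes per list with the largest difference past the threshold plus up to 2 against the direction of most called, and the 3 genes nearest in profile to each called member; predicted loci were left out. Others are said to be chosen after their values were seen. The alternatives were trend and robust moderation, quantile normalization again, median centring, a filter on the genes of lowest mean, the mean of probe sets, array weights, the replicate number as a block, and arrays left out singly or YFP+ arrays 3 and 4 together.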

Additional observations from a re-analysis of the deposited data

Results flagged for a closer look

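Among 40 named genes, 3 subunit genes had 1 YFP+ array far from the other 3, by the gap to the nearest array over the range of the group; chance alone marks about 1 gene in 20. Gria2 stood at 7.29 on YFP+ array 2, against 6.81 to 6.89 on the others, and its log2 difference without that array was 3.07 and still called. Gria1 stood at 4.28 on YFP+ array 1 and at 4.21 on the other 3. Grik4 stood at 4.99 on YFP+ array 1, against 4.90 to 4.91. For Gria1 and Grik4 the other values of the group are equal or nearly so, and the gaps themselves are under 0.1 on the log2 scale.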

How the results depend on the processing

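The count of 6 higher and 0 lower AMPA and kainate genes was 6 and 0 under 14 of 15 alternatives; the filter on low mean levels gave 5, because it removes Grik1. All 6 kept their call wherever they were tested. Neither Gria1, Gria3 nor Grik4 was called under any alternative, and signs turned for Gria1 without YFP- array 2 (-0.052; range without 1 array -0.052 to 0.090) and for Gria3 with median-centred arrays (0.020), without YFP+ arrays 3 and 4 (0.029) and in 3 of the 7 fits that leave out 1 array (range -0.091 to 0.068). Of the 37 named genes that were called, 31 kept the call throughout. Without YFP+ arrays 3 and 4, higher metabotropic genes numbered 0 and higher auxiliary genes 3, and array weights called 1 metabotropic gene lower. Leaving out 1 array gave 3 to 5 higher auxiliary genes, 2 to 4 higher trafficking genes, 1 to 3 higher supply genes, and 1166 to 1890 lower genes over all, with 1166 without YFP- array 2. Whether same-numbered samples belong together is not in the labels. Their deviations from the group means correlated over genes at 0.01, -0.09 and 0.04. With so few arrays, such values cannot show whether the samples were paired. With the replicate block the members called higher were 6, and the calls of Dlg4 and Slc38a1 were lost (limma adjusted p = 0.0871 and 0.132). The pair tests gave 13 of 16 with quantile normalization. Median centring cancels in the difference of 2 genes on an array, and each member has 1 probe set. Centring and the mean of probe sets therefore could not change these tests. Without 1 or 2 arrays the smallest p of the pair tests is too large to pass, so they were not run. The cause of these changes was not tested.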

Other observations

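The genes of the 15 windows with the RE1 core include 12 measured genes. Of these, 3 were higher in YFP+ cells, Gria2, Scamp5 (1.03 ± 0.14 SE on the log2 scale) and Ogdhl (0.61 ± 0.13), and 0 were lower (limma adjusted p under 0.05). Gria2, whose match is shown above and whose difference was already known, is itself part of this count. The other 9 did not pass, among them Gad2 at 0.07 ± 0.07 and Robo2 at 0.06 ± 0.18. The median log2 difference of the 12 was 0.15, and of all 15563 genes with a window 8.30% were higher, 9.02% were lower and the median was 0.01.

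Identical values on several arrays, as seen for Gria1 and Grik4, were common in the deposited table. Of 19938 genes 53.6% had the same value to 6 decimals on at least 2 arrays, and 16.4% on 4 or more. The 7 other subunit genes had a different value on each array.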
